A study of Rattus norvegicus with 15 samples.

Results

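The genes described here are the 10 circadian clock genes Clock, Npas2, Per1, Per2, Per3, Cry1, Cry2, Nr1d1, Nr1d2 and Dbp. They were listed by name and not by a cut on their values, though earlier results of these data were known. Each was found once among the 34357 rows of the expression table that carry a gene identifier. Their transcripts were measured by sequencing total RNA from the mesenteric artery, a gut vessel, and from the cortex of the kidney. The animals were Dahl SS rats, bred to become hypertensive on a salty diet. The rats either lacked a noncoding interval of chromosome 2, the counterpart of a human haplotype region near NPR3, or were wild-type. The libraries were 4 arteries and 4 kidneys with the deletion, which the sample titles call knockout, and 4 arteries and 3 kidneys of wild-type rats. All titles say male. Age, diet, the number of founder lines and whether the deletion was on both chromosomes are not given in the labels used here, and neither is the hour at which tissue was taken, on which the levels of many clock genes are known to depend. The labels neither name the animal behind a library nor tie an artery to a kidney, so errors and p-values measure only the spread between these libraries, which may be technical. None of the 10 genes lies on chromosome 2; the position of each is given below on rn7, as in the deposited table.

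Most cells keep time with a loop of transcription and its delayed repression. CLOCK, or its paralogue NPAS2, pairs with BMAL1 and switches on the Period (Per) and Cryptochrome (Cry) genes, whose proteins return to the nucleus and inhibit the pair. A second loop runs through Nr1d1 and Nr1d2, which encode the haem-binding receptors REV-ERB alpha and beta and repress Bmal1, and Dbp, a leucine-zipper activator driven by the same pair, carries the rhythm to output genes. In vessel wall and kidney this clock is known for daily changes in vascular tone, blood pressure and sodium excretion.

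The level of each gene is given in FPKM, fragments scaled by gene length and library size, so that levels can be compared between genes. Summed FPKM ran from 285679 to 433477 in the arteries and from 376270 to 459847 in the kidneys. Read depth cannot be had from such values and is unknown. The tissues carried their defining markers. The 5 smooth muscle markers summed to between 1217 and 2543 FPKM in the arteries and to between 32.5 and 65.2 FPKM in the kidneys, and the 6 proximal tubule markers to between 1.61 and 7.63 FPKM in the arteries and to between 2810.1 and 5564 FPKM in the kidneys. The arteries also held fat, with 8 adipocyte markers that summed to between 2138 and 4127 FPKM, against 25.0 to 36.7 FPKM in the kidneys. In bulk tissue, fewer cells of a type and less RNA per cell cannot be told apart. Haemoglobin transcripts took 28.2% of summed FPKM in artery wild-type 4, 1.38% to 10.4% in the other arteries and 0.481% to 1.29% in the kidneys. The library labelled kidney wild-type 3 did not look male: Xist stood at 81.1 FPKM, against at most 1.30 FPKM in any other library, and the Y-linked genes Kdm5d, Eif2s3y and Uty were listed at 0. Where leaving this library out ended a call, brought one or turned a direction in a fit or a correlation with Bmal1, the value without it is given too.

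The E-box, where CLOCK and BMAL1 bind, the D-box, where DBP binds, and the RORE, where REV-ERB binds, are short letters that can be read in the promoters. The RefSeq promoter table (GRCr8) held 9 of the 10 genes, and the 250 bases before each start site were searched on both strands. The windows with a match are shown, since they are where these letters stand in the genes of the loop. Positions count back from the start site, the strand is that of the gene, and capitals mark the match. The Per2 window, chr9:99496994-99497243 on the minus strand, held the D-box letters TTATGTAA with their first base at -192 and the E-box variant CACGTT at -62. The Cry2 window, chr3:98860438-98860687 on the minus strand, held CACGTT on the opposite strand at -212, read here as AACGTG. Of Nr1d1, the upstream window, chr10:84231813-84232062 on the minus strand, held CACGTT on the opposite strand at -174, and a window before a second start site, chr10:84229455-84229704, held the canonical E-box CACGTG at -191. Bmal1, no member of the 10 but the target of both REV-ERB genes, is shown for the RORE core TAGGTCA at -16 in chr1:176766078-176766327 on the plus strand.
Per2: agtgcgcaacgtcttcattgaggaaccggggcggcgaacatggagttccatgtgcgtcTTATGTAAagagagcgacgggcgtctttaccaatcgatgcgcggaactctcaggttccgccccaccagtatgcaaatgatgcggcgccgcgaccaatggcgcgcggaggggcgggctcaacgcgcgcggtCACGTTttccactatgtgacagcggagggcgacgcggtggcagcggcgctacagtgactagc
Cry2: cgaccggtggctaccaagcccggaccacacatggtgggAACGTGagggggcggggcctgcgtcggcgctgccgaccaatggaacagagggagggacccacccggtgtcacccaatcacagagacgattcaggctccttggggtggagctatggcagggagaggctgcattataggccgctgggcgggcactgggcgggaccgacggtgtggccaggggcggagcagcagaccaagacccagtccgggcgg
Nr1d1, upstream start: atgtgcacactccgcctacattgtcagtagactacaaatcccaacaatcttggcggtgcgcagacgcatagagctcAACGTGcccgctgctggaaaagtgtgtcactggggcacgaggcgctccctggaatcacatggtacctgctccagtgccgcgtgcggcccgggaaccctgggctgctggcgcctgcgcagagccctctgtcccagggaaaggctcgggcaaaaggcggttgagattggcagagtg
Nr1d1, second start: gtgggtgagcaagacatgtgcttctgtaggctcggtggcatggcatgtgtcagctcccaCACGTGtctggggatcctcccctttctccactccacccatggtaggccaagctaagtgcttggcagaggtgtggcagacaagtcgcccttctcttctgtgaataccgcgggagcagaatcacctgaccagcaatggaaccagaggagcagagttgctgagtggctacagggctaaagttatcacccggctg
Bmal1: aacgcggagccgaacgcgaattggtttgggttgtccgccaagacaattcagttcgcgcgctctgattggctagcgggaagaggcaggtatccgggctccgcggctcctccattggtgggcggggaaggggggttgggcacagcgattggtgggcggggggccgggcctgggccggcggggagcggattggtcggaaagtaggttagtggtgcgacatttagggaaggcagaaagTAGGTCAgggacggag
Such letters also stand in other promoters. Among 33469 promoter windows of the same length, CACGTG was in 5.59%, CACGTT in 4.07% and either of these in 9.43%. The rest were rarer, with TTATGTAA in 0.828%, TAGGTCA in 2.26% and the cAMP response element TGACGTCA in 1.59%. The windows of Per1, Per3, Nr1d2, Dbp, Clock and Npas2 held none of these letters, which says nothing of sites elsewhere in those genes.

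Between tissues the 10 genes did not move as a block. As fold changes of artery over kidney on log2(FPKM + 0.5), Nr1d1, Per3 and Per1 had 1.95 to 2.81, Npas2 1.81 and Cry2 1.22. Dbp had 0.771 and Cry1 0.731. The scale understates differences of low genes: Npas2 averaged 1.58 FPKM in artery and 0.577 FPKM in kidney. Per2, Nr1d2 and Clock did not pass the test. In limma's moderated test on log2(FPKM + 0.5), fitted over all 15 libraries with genotype as a second term and adjusted over all 16856 genes tested by the Benjamini-Hochberg method, 7 of the 10 had an adjusted p under 0.05, 5 of them higher and 2 lower in artery. By unadjusted p under 0.05 there were 9, beside 78.5% of all genes. Of all genes tested, 77.1% passed, 41.8% higher and 35.3% lower in artery, so a share of 7 in 10 is near that of any gene in this comparison. The median log2 fold change was 0.21 over the 10 genes and 0.11 over all genes tested. With median-of-ratios scaling of the libraries the median of all genes moved to -0.03, so each log2 fold change below stands against a shift of that size.

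**Figure D1:**
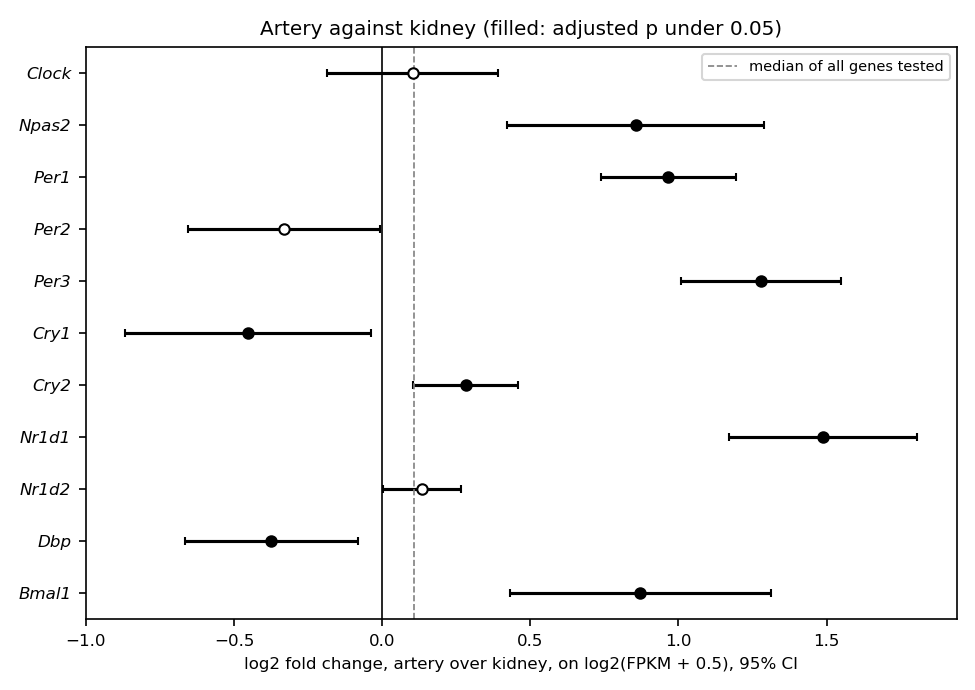
Log2 fold change of artery over kidney on log2(FPKM + 0.5), with 95% confidence intervals from limma, for the 10 clock genes and Bmal1. Filled points have an adjusted p under 0.05, and the dashed line is the median of all genes tested, 0.11. Nr1d1 at 1.49 and Per3 at 1.28 lie farthest right, and Cry1 at -0.45 lies farthest left.

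The order of levels differed between tissues below the leading genes. Dbp averaged 78.8 ± 15.01 FPKM in artery (SD, n = 8) and 103 ± 22.2 FPKM in kidney (SD, n = 7), the highest of the 10 in each tissue. Nr1d2 came next in each, at 50.8 ± 1.14 FPKM in artery and 46.3 ± 2.85 FPKM in kidney. In artery the order went on with Nr1d1, Per3, Per1, Cry2, Clock and Per2, and in kidney with Nr1d1, Per2, Cry2, Clock, Per3 and Per1. Cry1 and Npas2 were lowest in both. Many neighbours in that order had overlapping libraries: in artery the ranges were apart only between Dbp and Nr1d2, Per3 and Per1, and Per2 and Cry1, and in kidney only between Dbp and Nr1d2, Nr1d2 and Nr1d1, Per1 and Cry1, and Cry1 and Npas2.

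**Figure D2:**
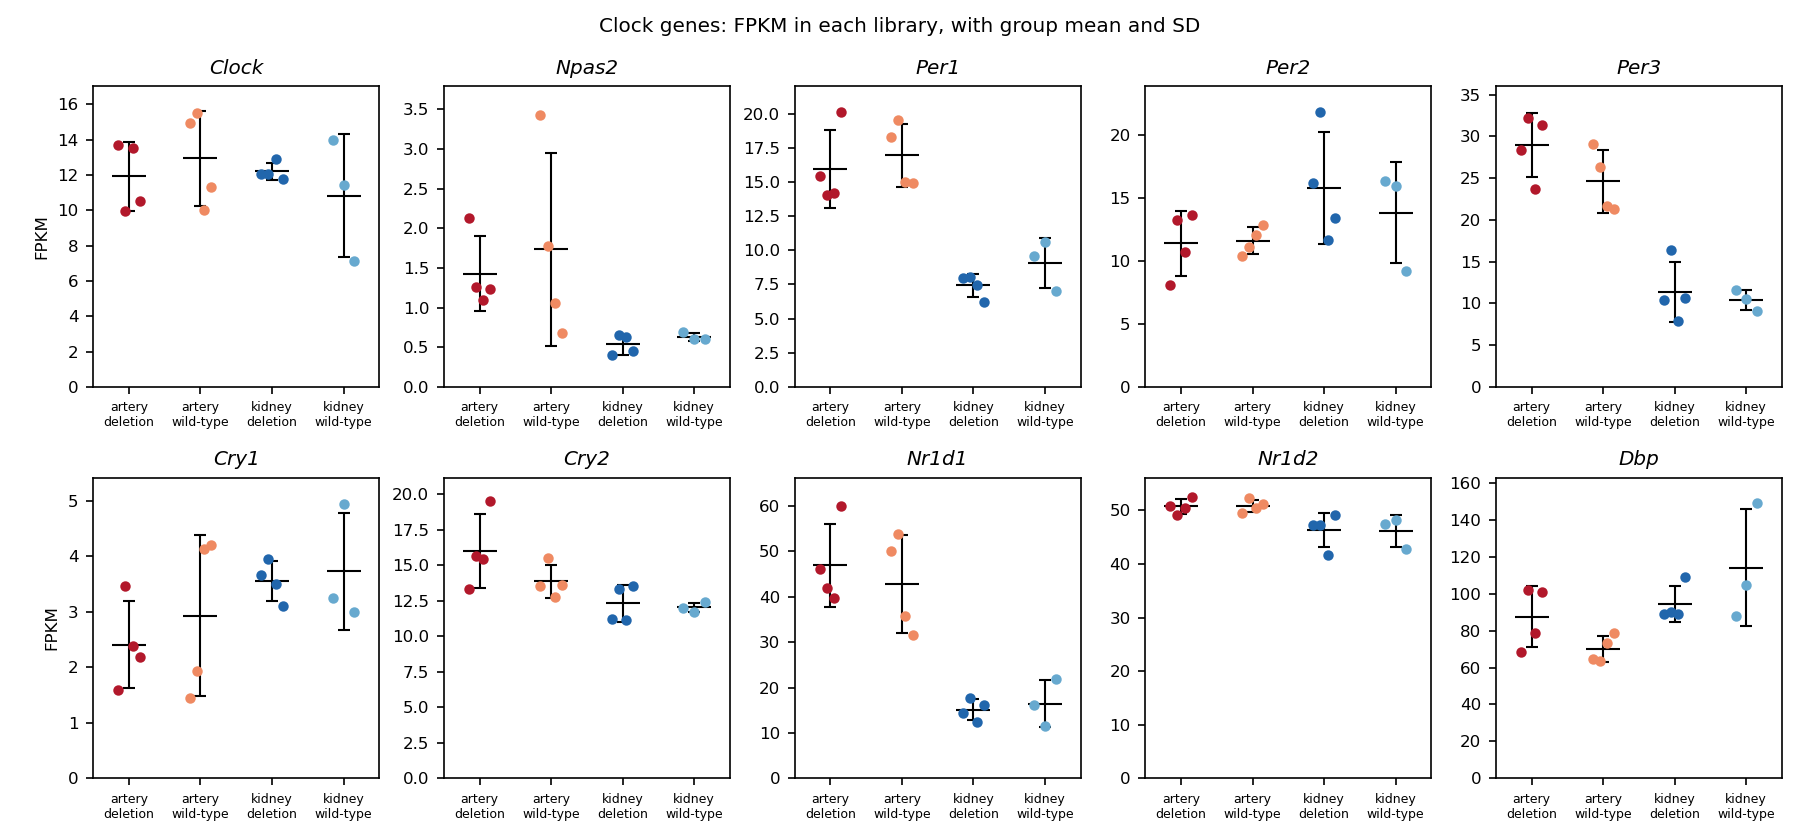
FPKM of the 10 clock genes in each library, by group, with each group's mean and SD; every axis starts at 0. Nr1d1, Per3, Per1 and Nr1d2 are higher in every artery than in every kidney, while Npas2 in artery runs from 0.682 to 3.43 FPKM.

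Of the activators, Clock (chr14:31908542-31992673, plus strand) encodes the histone-acetylating partner of BMAL1. Its level was 9.98 to 13.7 FPKM in artery deletion and 10.01 to 15.5 FPKM in artery wild-type libraries, and 11.8 to 12.9 FPKM in kidney deletion and 7.13 to 14.0 FPKM in kidney wild-type libraries. The lowest value was that of kidney wild-type 3, and the tissues overlapped over most of their range. The log2 fold change of artery over kidney was 0.10 ± 0.14 (SE, adjusted p = 0.501). It was -0.02 without kidney wild-type 3, -0.04 with median-of-ratios scaling and -0.04 in the deletion libraries alone, so its sign was not settled.

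Npas2 (chr9:41463361-41642322, plus strand), the paralogue that can replace Clock, had 2.12, 1.26, 1.09 and 1.24 FPKM in artery deletion libraries 1 to 4, against 3.43, 1.78, 1.06 and 0.682 FPKM in artery wild-type libraries 1 to 4. In kidney it had 0.396, 0.659, 0.634 and 0.456 FPKM in deletion libraries 1 to 4, against 0.689, 0.607 and 0.598 FPKM in wild-type libraries 1 to 3. Every artery but wild-type 4 exceeded every kidney, and the artery values spread over 5.03 times from lowest to highest. Npas2 was higher in artery by a log2 fold change of 0.86 ± 0.20 (SE, adjusted p = 0.00117). Among wild-type libraries alone the value was 0.83 with an adjusted p of 0.0736. Bmal1, the shared partner, averaged 1.67 ± 0.635 FPKM in artery (SD, n = 8) and 0.702 ± 0.407 FPKM in kidney (SD, n = 7). It too was higher in artery, by 0.87 ± 0.21 (SE, adjusted p = 0.00115), and by 0.81 with an adjusted p of 0.0629 among wild-type libraries alone.

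The 3 Period genes parted from each other. Per1 (chr10:53800126-53814963, plus strand), which besides its E-boxes is known to answer glucocorticoids and cAMP, had 15.4, 14.1, 14.2 and 20.1 FPKM in artery deletion libraries 1 to 4, against 18.3, 19.5, 15.001 and 14.96 FPKM in artery wild-type libraries 1 to 4. In kidney it had 7.95, 8.08, 7.47 and 6.25 FPKM in deletion libraries 1 to 4, against 9.57, 10.6 and 7.03 FPKM in wild-type libraries 1 to 3. All arteries lay above all kidneys. Per1 was higher in artery by a log2 fold change of 0.97 ± 0.11 (SE, adjusted p = 3.61e-07).

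Per3 (chr5:161460228-161495404, minus strand), the Period gene thought to matter least to the oscillator itself, had 28.3, 32.2, 23.7 and 31.4 FPKM in artery deletion libraries 1 to 4, against 29.1, 26.3, 21.6 and 21.4 FPKM in artery wild-type libraries 1 to 4. In kidney deletion libraries 1 to 4 it had 10.4, 16.4, 7.92 and 10.7 FPKM, against 11.6, 10.5 and 9.10 FPKM in kidney wild-type libraries 1 to 3. The tissues did not overlap. Per3 was higher in artery by 1.28 ± 0.13 (SE, adjusted p = 9.61e-08).

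Per2 (chr9:92007289-92049551, minus strand), a repressor whose protein is timed by casein kinase 1, did not share this pattern. It had 8.07, 13.2, 10.7 and 13.6 FPKM in artery deletion libraries 1 to 4, against 10.4, 11.1, 12.1 and 12.8 FPKM in artery wild-type libraries 1 to 4. In kidney deletion libraries 1 to 4 it had 16.2, 21.9, 11.6 and 13.4 FPKM, against 16.3, 15.95 and 9.23 FPKM in kidney wild-type libraries 1 to 3. The tissues overlapped, with kidney wild-type 3 below most arteries. Per2 had a fold change of artery over kidney, in log2, of -0.33 ± 0.15 (SE, adjusted p = 0.0595). Per2 passed, lower in artery, with median-of-ratios scaling (-0.48, adjusted p = 0.00271) and with array weights (-0.37, adjusted p = 0.0117). It also passed without kidney wild-type 3 (-0.45, adjusted p = 0.00772), without kidney deletion 3 (-0.39, adjusted p = 0.0362) and without artery deletion 4 (-0.37, adjusted p = 0.0499).

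The Cryptochromes are the direct inhibitors of CLOCK and BMAL1. Cry1 (chr7:18529823-18594092, plus strand) had 1.59, 3.46, 2.38 and 2.19 FPKM in artery deletion libraries 1 to 4, against 1.44, 1.94, 4.13 and 4.21 FPKM in artery wild-type libraries 1 to 4. In kidney it kept between 3.10 and 3.96 FPKM in deletion and between 2.997 and 4.94 FPKM in wild-type libraries. Artery deletion 2 and artery wild-type 3 and 4 lay within the kidney range, and the other 5 arteries lay below it. The same 3 arteries had the highest sums of the 7 lymphocyte markers, 84.6 FPKM in artery deletion 2, and 116 and 31.8 FPKM in artery wild-type 3 and 4, against 4.52 to 15.9 FPKM in the other 5 arteries and 2.14 to 3.56 FPKM in the kidneys. This match was not planned, and the share of all genes that were highest in these same 3 arteries was not counted. The part of lymphocytes in the Cry1 values was not tested. Cry1 was lower in artery by a log2 fold change of -0.45 ± 0.20 (SE, adjusted p = 0.0446). The call was lost in wild-type libraries alone (-0.38, adjusted p = 0.35), without a filter on low values (adjusted p = 0.0661) and on leaving out any of 10 libraries (artery deletion 1, 3 or 4, artery wild-type 1 or 2, any kidney deletion library, or kidney wild-type 2), with adjusted p between 0.0515 and 0.105.

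Cry2 (chr3:78374995-78405001, minus strand) ran from 13.3 to 19.6 FPKM in artery deletion and from 12.8 to 15.5 FPKM in artery wild-type libraries, against 11.1 to 13.5 FPKM in kidney deletion and 11.7 to 12.4 FPKM in kidney wild-type libraries. It was higher in artery by 0.28 ± 0.08 (SE, adjusted p = 0.00614), by 0.13 with an adjusted p of 0.171 after median-of-ratios scaling, and by 0.19 with an adjusted p of 0.15 in wild-type libraries alone. Cry1 and Cry2 thus passed in opposite directions, each with alternatives that ended its call.

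Nr1d1 and Nr1d2 encode repressors with the same binding site and largely shared roles, but their levels behaved differently. Nr1d1 (chr10:83728348-83735562, minus strand) had 46.1, 42.0, 39.6 and 60.1 FPKM in artery deletion libraries 1 to 4, against 50.2, 53.9, 35.8 and 31.6 FPKM in artery wild-type libraries 1 to 4. In kidney deletion libraries 1 to 4 it had 14.4, 17.7, 12.4 and 16.1 FPKM, against 16.1, 11.4 and 21.9 FPKM in kidney wild-type libraries 1 to 3. The lowest artery stood above the highest kidney. Nr1d1 was higher in artery by a log2 fold change of 1.49 ± 0.15 (SE, adjusted p = 1.03e-07), a fold of 2.81 with a 95% confidence interval of 2.25 to 3.50.

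Nr1d2 (chr15:7524257-7550553, plus strand) had the lowest coefficient of variation of the 10 over the 8 arteries, 2.24%, and over the 7 kidneys, 6.16%. It ran from 49.2 to 52.4 FPKM in artery deletion and from 49.6 to 52.2 FPKM in artery wild-type libraries, against 41.7 to 49.1 FPKM in kidney deletion and 42.8 to 48.3 FPKM in kidney wild-type libraries. Over the arteries Nr1d1 had 21.2% and Npas2 55.0%, and within the kidney groups others varied less, with Clock at 4.03% in deletion and Cry2 at 2.82% in wild-type kidneys. Although every artery lay above every kidney, by as little as the gap between 49.2 and 49.1 FPKM, its fold change in log2 was 0.13 ± 0.06 (SE, adjusted p = 0.05755). It passed without the robust option of limma (adjusted p = 0.0439), without the filter (adjusted p = 0.0362) and without kidney deletion 2 (adjusted p = 0.0472), and it was -0.02 after median-of-ratios scaling. Libraries of the tissues did not overlap for 4 of the 10 genes, Per1, Per3, Nr1d1 and Nr1d2, each higher in artery, against 50% of all genes tested (25.5% higher and 24.4% lower).

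Dbp (chr1:96175796-96180745, plus strand) had 68.5, 102.0, 78.6 and 100.6 FPKM in artery deletion libraries 1 to 4, against 64.7, 63.7, 73.2 and 78.8 FPKM in artery wild-type libraries 1 to 4. In kidney deletion libraries 1 to 4 it had 89.2, 90.0, 88.9 and 109 FPKM, against 88.1, 105 and 149 FPKM in kidney wild-type libraries 1 to 3. The highest value was that of kidney wild-type 3, and artery deletion 2 and 4 were the only arteries within the kidney range. Dbp was lower in artery by a log2 fold change of -0.37 ± 0.14 (SE, adjusted p = 0.0207). Without kidney wild-type 3 the value was -0.26 (adjusted p = 0.0529). The tissue difference was -0.67 in wild-type libraries alone (adjusted p = 0.0114) and -0.12 in deletion libraries alone (adjusted p = 0.508).

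Ratios within a library do not depend on its scaling and show how the balance between paralogues differed. They are descriptions with no test of their own. Nr1d1 over Nr1d2 had a median of 0.879 in artery, from 0.618 to 1.15, and of 0.327 in kidney, from 0.237 to 0.511. Per1 over Per2 had a median of 1.40 in artery, from 1.06 to 1.91, and of 0.586 in kidney, from 0.369 to 0.761. Per1 thus exceeded Per2 in each artery and was below it in each kidney. Per3 over Per2 likewise had a median of 2.33 in artery, from 1.66 to 3.51, and of 0.709 in kidney, from 0.641 to 0.986. The Cry2 to Cry1 ratio overlapped between tissues, at 3.09 to 9.41 in artery and 2.37 to 4.37 in kidney, as did that of Clock to Npas2, at 4.37 to 16.6 in artery and 11.9 to 30.5 in kidney. Dbp over Bmal1, a target over its activator, ran from 23.8 to 92.8 in artery and from 57.5 to 573 in kidney, the last in kidney wild-type 3.

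**Figure D3:**
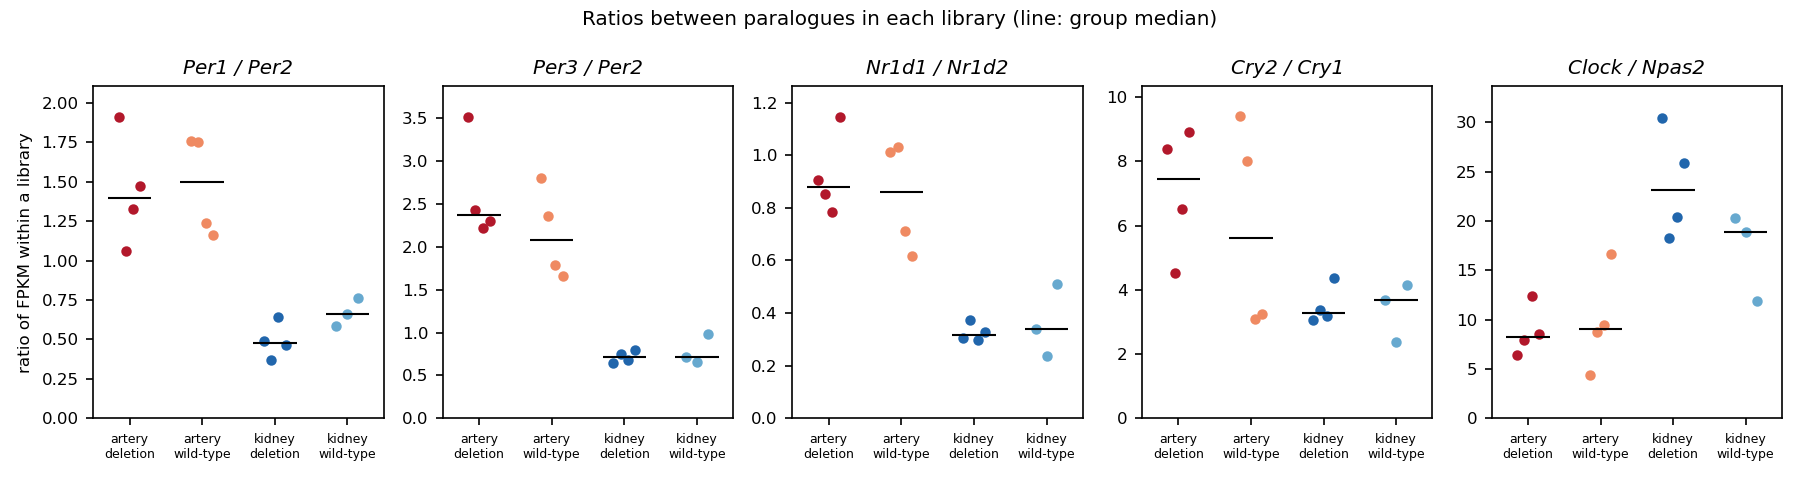
Ratio of FPKM between paralogous clock genes within each library, by group, with the group median as a line; every axis starts at 0. Per1 over Per2, Per3 over Per2 and Nr1d1 over Nr1d2 are higher in every artery than in every kidney, while the other 2 ratios overlap.

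Deletion was set against wild-type within each tissue. In artery, none of the 10 clock genes passed for deletion against wild-type, where 0 of 16470 genes tested passed (0%) and 863 (5.24%) had an unadjusted p under 0.05, 0 of the 10 among them. The 10 genes had 4 positive and 6 negative log2 fold changes, with a median of -0.03 beside 0.04 for all genes tested. Dbp had the largest difference, at 87.4 ± 16.6 FPKM in deletion and 70.1 ± 7.19 FPKM in wild-type arteries (SD, n = 4 each). Its log2 fold change of 0.30 ± 0.15 (SE) was a fold of 1.23 with a 95% confidence interval of 0.973 to 1.56 (adjusted p = 0.893). Per3 followed at 0.23 ± 0.14 and Cry2 at 0.19 ± 0.12 (SE, adjusted p = 0.893 for each). Of the adipocyte markers, 8 of 8 had a positive value in this comparison with none passing, and of the erythroid markers 7 of 7 a negative one with none passing. Some other cell type lists were as one-sided with none passing: 5 of 5 smooth muscle markers were positive, and 6 of 6 macrophage and 5 of 5 gut epithelium markers were negative. The gut markers summed to 34.0 FPKM in artery wild-type 1 and to between 0.0782 and 3.33 FPKM in the other arteries. Of the lymphocyte markers, 2 were positive and 5 negative. With the adipocyte markers as a covariate, Dbp had 0.27, Per3 0.20 and Cry2 0.21, each with an adjusted p of 0.953; the part of the other cell types was not tested.

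In kidney, too, none of the 10 passed, where 0 of 15444 genes tested passed (0%) and 217 (1.41%) had an unadjusted p under 0.05, again 0 of the 10 among them. Per1 had the lowest value, at 7.44 ± 0.834 FPKM in deletion (SD, n = 4) and 9.06 ± 1.83 FPKM in wild-type kidneys (SD, n = 3), a log2 fold change of -0.26 ± 0.16 (SE, adjusted p = 0.999). The overlap came from kidney wild-type 3 alone: at 7.03 FPKM it lay within the deletion range, and the other 2 wild-type kidneys lay above it. Without this library the value was -0.42 with an adjusted p of 1. With array weights Per1 passed (-0.49, adjusted p = 0.0458) as 1 of 282 genes, in a fit whose weights had not converged and gave kidney wild-type 2 a weight of 18.2, against 0.268 to 1.86 for the rest. Dbp went the other way than in artery, at 94.3 ± 9.82 FPKM in deletion (SD, n = 4) and 114 ± 31.7 FPKM in wild-type kidneys (SD, n = 3). Its log2 fold change was -0.24 ± 0.20 (SE, adjusted p = 0.999), and -0.03 without kidney wild-type 3. Leaving out the same library turned the direction of 5 other genes. Clock had 0.21 with it and -0.05 without, Per2 0.19 and -0.07, Per3 0.08 and -0.0088, Nr1d1 -0.08 and 0.14, and Nr1d2 0.0054 and -0.05. The intervals were wide: that of Dbp in kidney ran from a fold of 0.617 to 1.16 and that of Npas2 in artery from 0.545 to 1.61. Differences within these limits were thus not excluded by these libraries.

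The interaction term of a fit to all 15 libraries asked whether the deletion effect in artery was unlike that in kidney. None of the 10 passed, where 0 of 16856 genes passed (0%) and 740 (4.39%) had an unadjusted p under 0.05. Dbp was 1 of those, with a log2 effect of the deletion in artery that exceeded the kidney one by 0.55 ± 0.25 (SE, unadjusted p = 0.0435, adjusted p = 0.943). Without kidney wild-type 3 the difference was 0.33. Its direction turned for Per2, which had -0.24 with that library and 0.02 without, and for Nr1d2, which had -0.0089 and 0.045. In neither tissue did the deletion and wild-type libraries of any of the 10 lie apart, against 3.25% of genes tested in artery (2.3% higher and 0.953% lower) and 2.55% in kidney (1.54% higher and 1.01% lower).

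**Figure D4:**
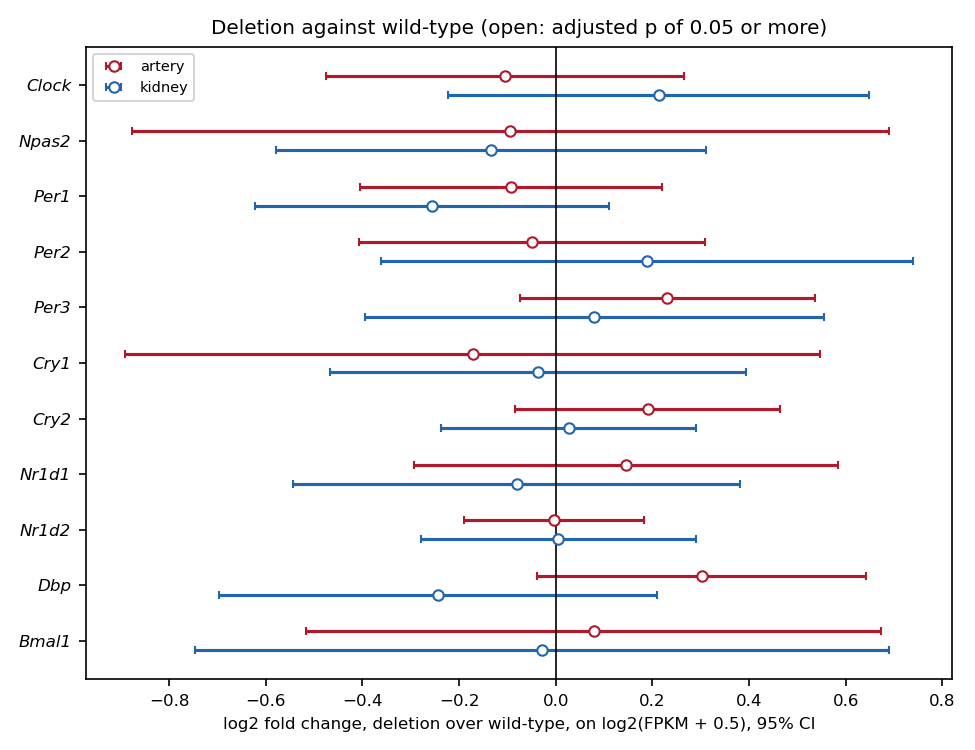
Log2 fold change of deletion over wild-type on log2(FPKM + 0.5), with 95% confidence intervals from limma, for the 10 clock genes and Bmal1 in artery and kidney. All points are open, as no adjusted p is under 0.05; Dbp is at 0.30 in artery and at -0.24 in kidney.

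Other genes of the clock differed between tissues in both directions. Of 11 further core genes, 9 were expressed highly enough to be tested for artery against kidney, of which 3 were higher and 4 lower, beside 41.8% and 35.3% of all genes tested. Higher were Bmal1, the E-box competitor Bhlhe41 (0.97 ± 0.20, SE, adjusted p = 0.000295) and Nfil3, the repressor that competes with DBP at the D-box (0.39 ± 0.14, SE, adjusted p = 0.0178). Among the lower ones were Hlf and Tef, the paralogues of Dbp (-1.06 ± 0.15 and -0.30 ± 0.10, SE), and Bhlhe40 (-0.32 ± 0.13, SE, adjusted p = 0.0274). All 3 leucine-zipper activators, Dbp, Tef and Hlf, were thus lower in artery, where Hlf stood at 9.07 ± 2.28 FPKM (SD, n = 8), against 19.2 ± 2.95 FPKM in kidney (SD, n = 7). Rora and Ciart did not pass.

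Among 9 genes that set the life of clock proteins, 3 were higher in artery and 3 lower, 6 called in all where 77.1% of all genes were. Csnk1e, the casein kinase 1 epsilon that marks PER proteins for decay, was higher (1.30 ± 0.12, SE, adjusted p = 2.07e-08), and its paralogue Csnk1d was lower (-0.32 ± 0.06, SE, adjusted p = 0.000207). Fbxl21, a ubiquitin ligase subunit that acts on CRY, was lower (-1.74 ± 0.17, SE, adjusted p = 6.11e-08). Btrc, the ligase subunit for PER, was higher (0.40 ± 0.15, SE, adjusted p = 0.0238). The deubiquitinase Usp2 was lower by -2.03 ± 0.11 (SE, adjusted p = 3.14e-11), with 4.89 ± 0.902 FPKM in artery (SD, n = 8) and 21.4 ± 2.79 FPKM in kidney (SD, n = 7). Of 10 output genes, 2 were higher and 5 lower in artery, near the share of 77.1% called among all genes. Deletion against wild-type passed for none of these genes in either tissue.

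Glucocorticoid-response and immediate-early genes were counted because Per1 is known to answer the same stimuli. Of 10 glucocorticoid-response genes, 5 were higher and 3 lower in artery, again near the 77.1% called among all genes, and their median log2 fold change was 0.59. Of 14 immediate-early genes tested, 12 were higher and none lower, where 41.8% of all genes were higher and 35.3% lower, and the list median was 1.28, where that of all genes was 0.11. Fos was among them at 3.26 ± 0.39 and Egr1 at 2.32 ± 0.21 (SE). The part of such responses in the tissue difference of Per1 was not tested.

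Bmal1 is known to run opposite in phase to the Per, Nr1d and Dbp genes, so its level in a library was set against each of the 10 within each tissue, 20 relations in all. By exact permutation of the pairings, none passed the Benjamini-Hochberg adjustment over the 20, and 2 had an unadjusted p under 0.05 by Pearson's r and 5 by Spearman's rho. Per2 ran against Bmal1 in the 8 arteries, with r = -0.83 (exact p = 0.0096, adjusted p = 0.192) and rho = -0.74 (exact p = 0.0458, adjusted p = 0.183). Without artery deletion 1 and wild-type 2, the farthest from the median of Bmal1, r was -0.71 (exact p = 0.124). Clock ran with Bmal1 in artery, with r = 0.76 (exact p = 0.0257, adjusted p = 0.257) and rho = 0.86 (exact p = 0.0107, adjusted p = 0.171), and r was 0.85 without the same libraries (exact p = 0.0375).

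Dbp had a negative r with Bmal1 in both tissues, -0.61 in artery (exact p = 0.0916, adjusted p = 0.276) and -0.73 in kidney (exact p = 0.0875, adjusted p = 0.276). Its rho was -0.69 in artery (exact p = 0.0694, adjusted p = 0.198) and -0.82 in kidney (exact p = 0.0341, adjusted p = 0.171). Clock had r = 0.76 in kidney (exact p = 0.0851, adjusted p = 0.276) and rho = 0.86 (exact p = 0.0238, adjusted p = 0.171). Bmal1 was low in kidney, with a median of 0.549 FPKM, near the pseudocount of 0.5, and depth is unknown. How much of its spread there was noise cannot be told. In kidney, 2 libraries moved the relations in both directions: wild-type 1, with the highest Bmal1 level at 1.53 FPKM, and wild-type 3, with the lowest at 0.261 FPKM. Without them r of Dbp was -0.52 and r of Clock was 0.08, against 0.76 over the 7 kidneys. Per1 fell from 0.47 to -0.03 and Nr1d2 from 0.43 to 0.11. By contrast, Per2 rose from 0.67 to 0.84, Per3 from 0.53 to 0.86, Nr1d1 from -0.11 to 0.75 and Cry2 from 0.03 to 0.44. Cry1 and Npas2 changed less. Per2, with a negative r in artery, had r = 0.67 in kidney (exact p = 0.0964, adjusted p = 0.276) and rho = 0.82 (exact p = 0.0341, adjusted p = 0.171), and the difference between tissues was not tested. Nr1d1 had r = 0.35 in artery and -0.11 in kidney, and Nr1d2 0.38 in artery and 0.43 in kidney, with adjusted p of at least 0.602 for each. Without kidney wild-type 3, r in kidney was 0.56 for Nr1d1, and -0.33 for Cry1, which had 0.04 with it.

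**Figure D5:**
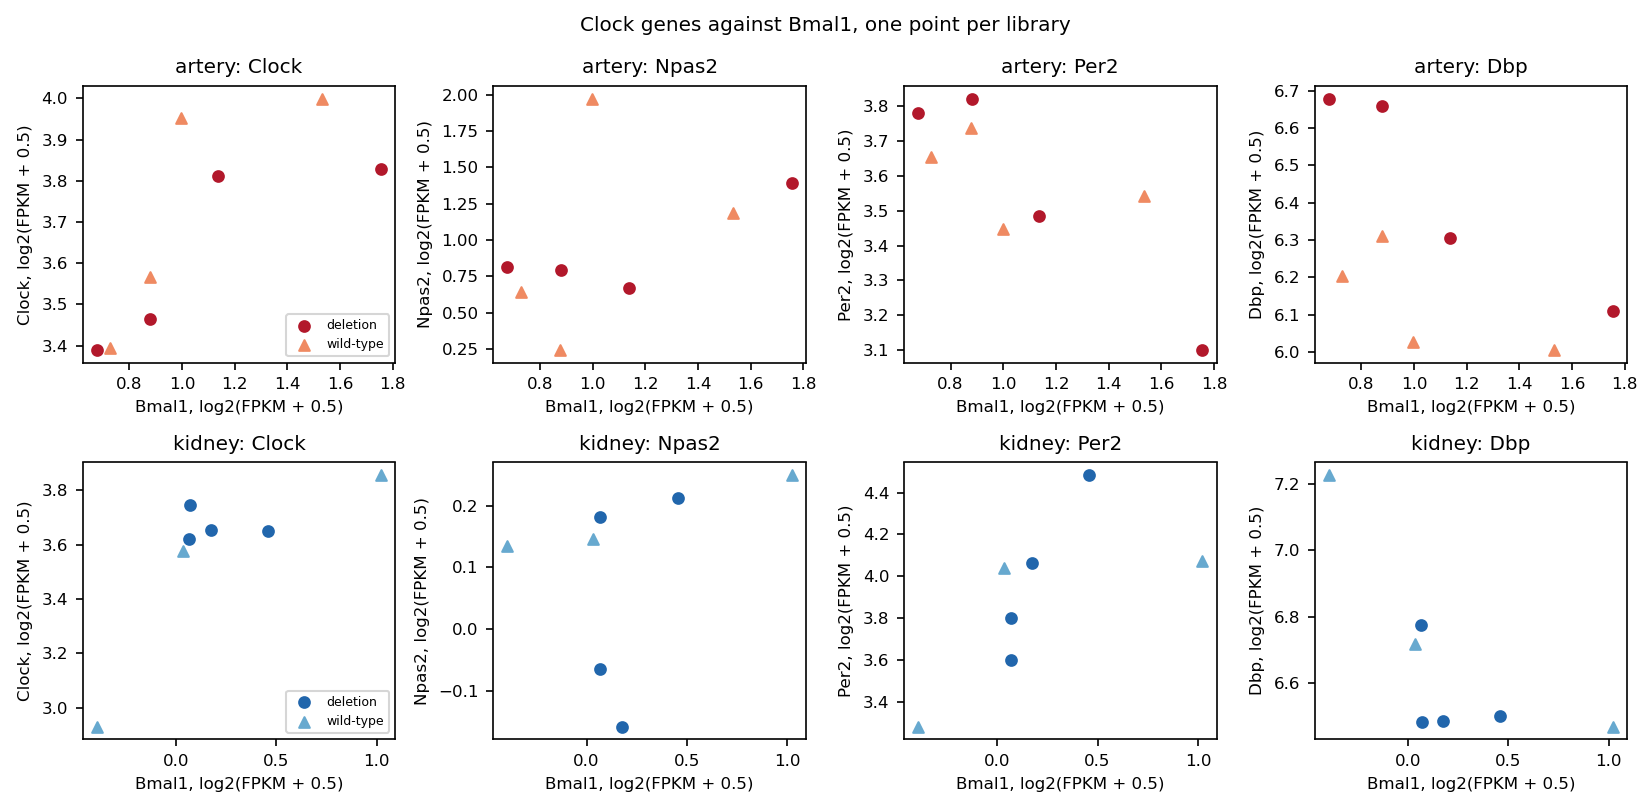
Levels of Clock, Npas2, Per2 and Dbp against Bmal1, both as log2(FPKM + 0.5), with 1 point per library; artery is above and kidney below, circles are deletion and triangles wild-type libraries. In artery Per2 has r = -0.83 and Clock r = 0.76; in kidney wild-type 3, at the far left, and wild-type 1, at the far right, set much of the spread.

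The genes most like Dbp were sought by Pearson's r over the 15 libraries, after centring log2 values within each of the 4 groups, among 12144 genes that averaged 1 FPKM or more in both tissues. Genes measured in the same library share its depth and RNA quality, so r is given as a description. Highest were Rilpl2 (r = 0.89), Smdt1 (0.87), Bola1 (0.86), Rps9 (0.86) and Rpl36 (0.85), and lowest Appbp2 (-0.94), Stxbp6 (-0.92), Fbxo11 (-0.89), Atf2 (-0.89) and Nectin3 (-0.88). The spans of the first 5 on the genome were 3.08 to 12.9 kb and those of the last 5 were 42.1 to 237 kb, beside 4.95 kb for Dbp and a median of 21.5 kb over the genes compared. Whether gene length or RNA quality had a part in the likeness was not tested. Of the clock genes, Ciart, an inhibitor of CLOCK and BMAL1, ranked 16 with r = 0.83 and Bhlhe41 ranked 58 with r = 0.78. Both are short like Dbp, with spans of 5.03 kb for Ciart and 4.36 kb for Bhlhe41. Tef spans 24.6 kb and Hlf 57.6 kb. Tef ranked 925 with r = 0.51, being 0.91 among arteries and -0.17 among kidneys. Hlf ranked 3419 with r = 0.17, being 0.75 among arteries and -0.88 among kidneys. Kidney wild-type 3, the library that did not look male, held the highest Dbp, Ciart and Bhlhe41 of the kidneys and the lowest Hlf. These stood there at 149, 4.15, 8.87 and 13.2 FPKM. In the other kidneys Ciart ran from 1.29 to 2.75 FPKM, Bhlhe41 from 2.64 to 4.72 FPKM and Hlf from 18.7 to 22.0 FPKM. The likeness was not sought again without this library. Most like Npas2 were Dis3l2 (0.87), Slc38a7 (0.87), Lysmd4 (0.86), Cog1 (0.85) and Nhsl1 (0.84). Among arteries alone their r ran from 0.91 to 0.95, and among kidneys it was 0.89 for Slc38a7, 0.52 for Dis3l2, 0.41 for Nhsl1, 0.34 for Cog1 and -0.11 for Lysmd4.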

How the data were processed

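RNA-seq of total RNA was deposited by the authors as 1 table of FPKM values, 1 column per library. Per the submitters' processing notes, HISAT2 2.2.1, Trim Galore 0.6.2 and DESeq2 1.46.0 were among the tools and rn7 was the build; of the tool that made the FPKM nothing is said in these notes. Of 40694 rows, 6337 carry no gene identifier and are 0 throughout, and 34357 were kept. The authors deposited 1 further column, a coverage signal per gene with no sample stated, which was not used. Read counts were not used here, so depth is unknown and no counting interval is given.

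Values were taken as log2(FPKM + 0.5); fold changes are on that scale, which understates those of low genes. A gene entered a fit if its libraries averaged 0.5 FPKM or more, and was tested with limma 3.58.1 in R 4.3.3 (lmFit, eBayes with trend and robust options), two-sided, with Benjamini-Hochberg adjustment over all genes and a call at an adjusted p under 0.05. Artery against kidney used all 15 libraries with genotype as a term, and deletion against wild-type was fitted in each tissue. Correlations used exact permutation over pairings (numpy 2.4.6), with ranks from scipy 1.17.1. The test script was tested on simulated data. Samples were grouped by title and genotype label.

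The members and lists were chosen with earlier results of these data known. Named are all 10 members, Bmal1, each listed core-clock or turnover gene that passed a test, up to 4 genes of other lists, and the 5 genes most and least like Dbp and most like Npas2. Some genes this rule names are not reported here. Alternatives were pseudocounts of 0.1 and 1, no filter or 1 FPKM, median-of-ratios scaling, no robust option, array weights, a replicate block, each genotype alone, 1 fit over both tissues, an adipocyte covariate, each library left out, and, for correlations, Spearman's rho and centring within genotype. Promoters are RefSeq (GRCr8); gene spans are those of the table on rn7. Figures used matplotlib 3.10.9 in Python 3.11.15.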

Additional observations from a re-analysis of the deposited data

Results flagged for a closer look

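In groups of 4 libraries, a library was singled out where its gap to the nearest other took up nearly all of the group's range by Dixon's criterion, and 2 of 33 groups had one, where chance alone gives about 1 in 20. Dbp stood at 109.0 FPKM in kidney deletion 4, while the other 3 deletion kidneys lay between 88.9 and 90.0 FPKM. Npas2 stood at 2.12 FPKM in artery deletion 1, while the other 3 deletion arteries lay between 1.09 and 1.26 FPKM. The same artery held the highest Bmal1 level, 2.88 FPKM. No gene of the 10 passed the interaction of tissue and genotype.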

How the results depend on the processing

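Of the fold changes of the 10 genes and Bmal1 between tissues, 95 of 110 alternatives other than leaving out a library kept direction and side of the threshold. Members called for artery against kidney were 4 in wild-type libraries alone and 6 in deletion libraries alone, against 7, while the share of all genes called was 65.5% and 65.4%, against 77.1%. They were 7 or 8 in the rest, 8 with the replicate block, and 6 to 7 on leaving out a library. For deletion against wild-type in kidney, array weights called 1 member and 282 genes, against 0, and 1 fit over both tissues called 1 gene; in artery a pseudocount of 0.1 called 1 gene. Whether the replicate numbers pair the libraries is unknown. Deviations of same-numbered libraries correlated between -0.335 and 0.325, which cannot decide it, since differently numbered libraries were not compared. The block called 8 members between tissues, Per2 among them (-0.36, adjusted p = 0.0495), and 0 by genotype.

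These changed sign. Between tissues, with scaling, Clock had -0.0434 and Nr1d2 -0.0165, and Clock -0.044 in deletion libraries alone. For genotype in kidney, array weights gave Bmal1 0.0936, Nr1d1 0.33, Nr1d2 -0.0414, Per2 -0.10 and Per3 -0.0295; scaling gave Cry2 -0.0545, Nr1d2 -0.0778 and Per3 -0.0012; the replicate block gave Bmal1 0.013, Cry1 0.0183, Cry2 -0.0194 and Nr1d2 -0.023; a pseudocount of 0.1 gave Bmal1 0.0453. In artery, Nr1d2 had 0.015 with the adipocyte covariate and 0.0027 with array weights. For the interaction, array weights gave Cry1 0.24, Nr1d1 -0.18, Nr1d2 0.0447 and Per2 0.0219; the block gave Cry1 0.0531 and Npas2 -0.22; scaling gave Nr1d2 0.0426 and a pseudocount of 1 gave Npas2 -0.0031. Of the correlations with Bmal1, scaling gave Cry1 -0.31, Cry2 -0.58 and Nr1d2 -0.43 in kidney and Nr1d2 -0.0571 and Per3 -0.0679 in artery; rho was -0.0714 for Cry2 and 0.11 for Nr1d1 in kidney and -0.0714 for Per3 in artery. The cause was not tested. With 3 or 4 libraries a group and unknown depth, small differences could not be detected.

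On leaving out each library in turn, values that changed sign ranged as follows: between tissues, Clock -0.0214 to 0.16; for genotype in artery, Per2 -0.14 to 0.10, Cry1 -0.41 to 0.0157, Nr1d2 -0.0192 to 0.0108, Npas2 -0.35 to 0.23, Bmal1 -0.14 to 0.24; for genotype in kidney, Per2 -0.0699 to 0.33, Per3 -0.11 to 0.23, Cry1 -0.16 to 0.16, Cry2 -0.0194 to 0.071, Nr1d1 -0.31 to 0.14, Nr1d2 -0.0485 to 0.0546, Clock -0.0482 to 0.41, Bmal1 -0.34 to 0.37; for the interaction, Per2 -0.37 to 0.0212, Cry1 -0.37 to 0.0531, Nr1d2 -0.058 to 0.045, Npas2 -0.22 to 0.36, Bmal1 -0.29 to 0.41; for correlations with Bmal1 in artery, Per1 -0.014 to 0.50, Per3 -0.14 to 0.35, Cry2 -0.35 to 0.13; and in kidney, Cry1 -0.33 to 0.44, Cry2 -0.12 to 0.17, Nr1d1 -0.32 to 0.56, Npas2 -0.0061 to 0.52.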

Other observations

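The arteries differed among themselves in a pattern noticed after the values were seen. Per1 was highest in 3 of the 8 arteries, deletion 4 at 20.1, wild-type 1 at 18.3 and wild-type 2 at 19.5 FPKM. Nr1d1 was highest in the same 3 arteries, at 60.1, 50.2 and 53.9 FPKM. The 3 arteries were picked by Per1, so Per1 itself does not count toward the pattern. No other of the 10 clock genes was highest in these 3. They were also the 3 highest, in any order, for the immediate-early genes Fos, Jun, Egr1 and Nr4a3, 4 of 15 on that list. The same held for 1 of 10 glucocorticoid-response genes, against 609 of 16470 genes tested (3.70%). Fos stood at 11.4, 16.1 and 19.3 FPKM in these 3 and between 1.58 and 8.39 FPKM in the other 5 arteries. Dusp1, a phosphatase and the 1 such glucocorticoid-response gene, stood at 59.5, 74.5 and 73.4 FPKM in the 3 and between 34.1 and 46.5 FPKM in the others. None of the other 9 core clock genes tested was highest in these 3 arteries. The cause was not tested.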
